A study of Mus musculus with 25 samples.

Results

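Resolution of contraction injury was examined by comparing the tibialis anterior, a mouse leg muscle of fast fibres, at 7 days with the same muscle at 3 days. The comparison rested on 6 of the 25 arrays of the series, the 3 titled as contraction injury at 7 days (samples 425, 439 and 453) and the 3 titled as contraction injury at 3 days (samples 435, 449 and 467). All mice were female C57BL/6J, 2 to 3 months old, and carried no genetic change named in the labels. In the contraction groups the muscle was injured in vivo by 150 eccentric contractions, in which an active muscle is stretched. The 3 uninjured control muscles gave the level to which a gene could return. Contraction arrays at 6 hours (3) and 1 day (2) shared the estimate of spread. Freeze arrays at 3 days (3) and 7 days (2) came from muscles frozen for 10 s with a steel probe 6 mm wide at dry ice temperature. These were set against contraction injury only in the last comparison, whose fit also held freeze arrays at 6 hours and 1 day. Freeze arrays of all times also entered the filter of probe sets and alternative fits to more arrays, up to all 25. Of 9506 probe sets tested, the single-symbol ones covered 6919 genes, and each gene is given by its brightest probe set.

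After contraction injury, monocytes enter the muscle and become macrophages, which engulf dead fibre segments in lysosomes and release growth factors. Satellite cells, the stem cells of muscle, divide, switch on Myog, fuse, and build new sarcomeres from embryonic, perinatal and slow isoforms before the adult fast isoforms take over. Fibres that survive strain raise heat shock proteins and sensors of the Z-disc, and fibres remodel their mitochondria and glycogen enzymes as they recover. The comparison of 7 with 3 days asks which of these programmes had fallen back and which had not.

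Values are array signals in arbitrary units, given per array in the sample order above, with controls in the order of replicates 1 to 3. Differences are on the log2(signal + 13) scale ± SE from limma, with 3 arrays in each group compared, and understate the change of dim genes. A gene was called at a Benjamini-Hochberg adjusted p under 0.05, and "rose" and "fell" are used of called genes. The labels do not say whether samples shared a mouse, and p-values therefore reflect how these samples vary, which may in part be technical. In whole muscle, fewer cells of a type and less RNA per cell cannot be told apart.

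Across tested probe sets, arrays at 3 days correlated with each other at 0.934 to 0.955 and with controls at 0.829 to 0.911, and arrays at 7 days correlated with each other at 0.946 to 0.962 and with controls at 0.908 to 0.949. Array 435 lay farthest from the controls of the 3 day arrays (0.829 to 0.833). For the actin control probes the 3'/5' ratio of signals was 0.923 to 1.21 at 3 days, 0.522 to 0.716 at 7 days and 0.56 to 0.595 in controls, whereas that of Gapdh was 0.923 to 1.12, 0.897 to 0.987 and 0.869 to 1.13. The part of this ratio in the results was not tested. All 8 markers that define fast skeletal muscle (Acta1, Ckm, Tnnt3, Tnni2, Myh4, Mylpf, Pvalb and Atp2a1) were measured, and Pvalb, the calcium buffer parvalbumin, gave 7436, 8799 and 10082 at 3 days, 13435, 19741 and 19529 at 7 days and 16859, 18749 and 25063 in controls.

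Between 3 and 7 days 788 genes were called, 11.4% of those tested, of which 465 fell (6.72%) and 323 rose (4.67%). The counts of each gene list below are to be read against these shares. The median over all genes was -0.01. Of the other genes, a p above the threshold does not show that the level stayed the same. By probe set the split was 586 lower and 379 higher, and centring each array on its median made it 460 lower and 456 higher. At 3 days 808 genes were above control (11.7%) and 617 below (8.92%), whereas at 7 days 105 were above (1.52%) and 20 below (0.289%), 125 in all (1.81%) against 1425 (20.6%). Counts depended on the arrays in the fit. Sample 436, a freeze array at 3 days, was known from earlier results to stand apart from its group, and its likeness to other arrays is not shown here. With all 25 arrays 62 genes were called between 3 and 7 days (0.896%, 35 lower or 0.506%, 27 higher or 0.39%). Without sample 436 the 24 others called 1020 (14.7%, 594 lower or 8.59%, 426 higher or 6.16%). Of 965 probe sets called between 3 and 7 days, the call count was 392 without array 435, 506 without array 425 and 502 without array 453. The 1811 probe sets called between 3 days and control became 1136 without array 435. The 148 probe sets called between 7 days and control became 63 without array 439, 66 without array 453, 93 without control 1 and 89 without control 3. Of 97 genes examined singly and called between the times, 72 kept the call without array 435, 91 without 449 and 83 without 467. The number was 77 without 425, 89 without 439 and 74 without 453. With all 25 arrays in the fit only 23 of the 97 kept the call and 74 lost it, whereas with 24 arrays all 97 kept it. The adjusted p-values of single genes below are those of the 14 array fit and carry this limit.

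**Figure D1:**
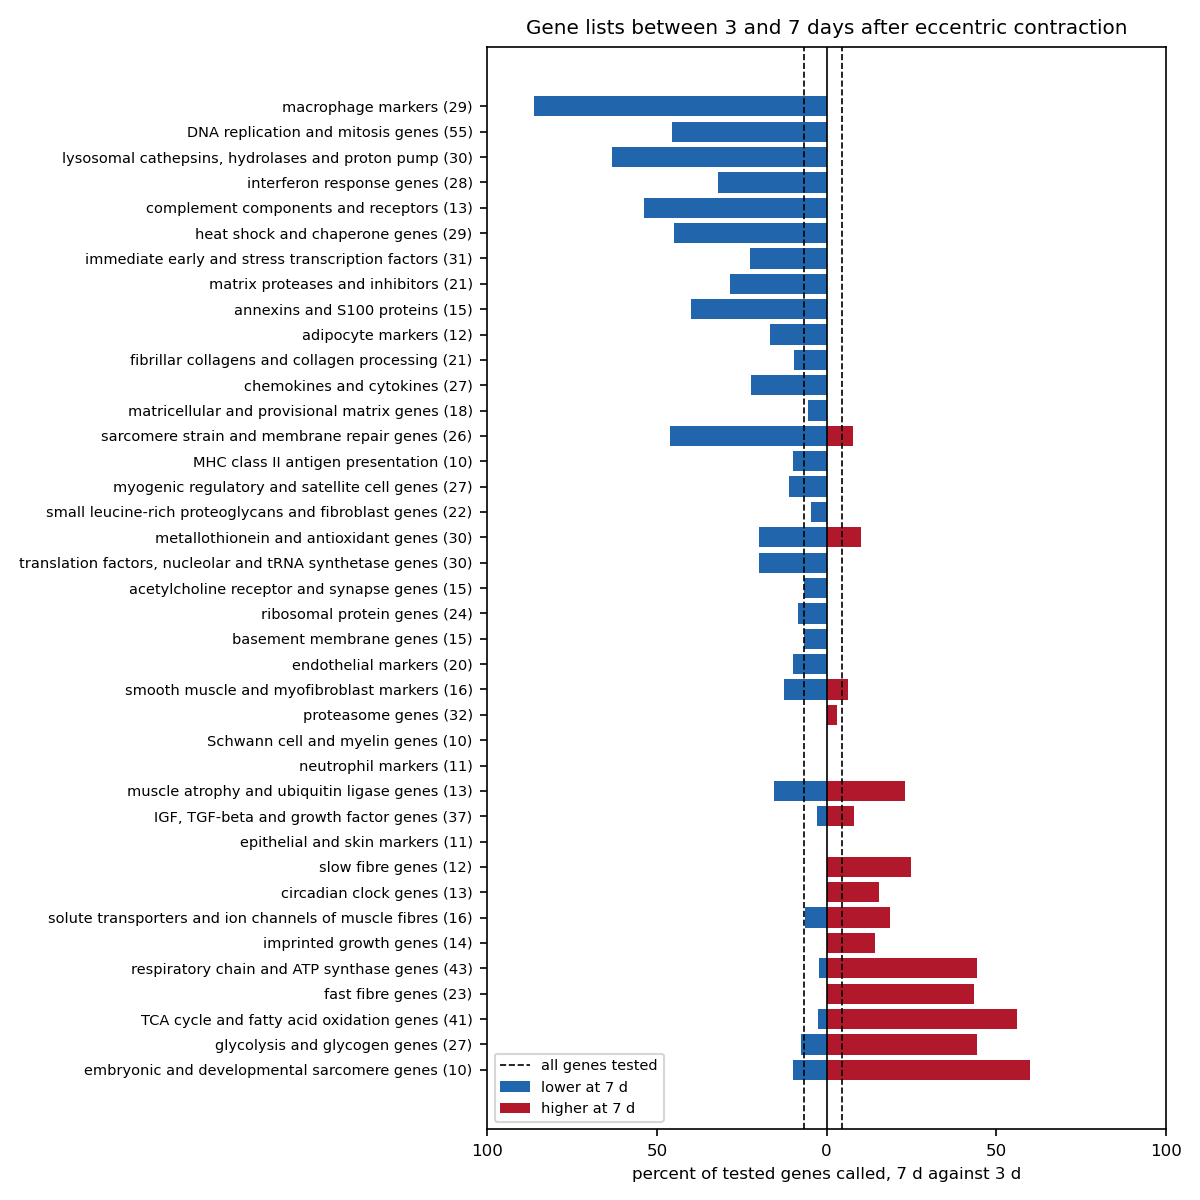
Percent of the tested genes of each list that were called lower (blue, to the left) or higher (red, to the right) at 7 than at 3 days after contraction injury; lists of at least 10 tested genes are ordered by their median change, with the number tested in brackets, and dashed lines give the shares over all genes (6.72% lower, 4.67% higher). Macrophage markers stand at the top with 25 of 29 lower, and embryonic sarcomere genes at the bottom with 6 of 10 higher.

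Most macrophage markers fell between 3 and 7 days. Of 29 markers tested, 25 fell and none rose, against 6.72% of all genes called lower, and the median was -1.97 against -0.01 over all genes. In 26 of 29 all 7 day arrays lay below all 3 day arrays, as they did in 17.0% of all genes. Counts without 1 array were 21 to 25, and 25 fell with 24 arrays but 2 with all 25. Adgre1, the F4/80 antigen that defines the lineage, gave 192, 131 and 112 at 3 days, 10.7, 14.4 and 10.9 at 7 days and 15.6, 5.10 and 5.50 in controls, so that only the 3 day arrays rose clearly above the dim range. The summed signal of the 29 markers was 1331 to 1735 in controls, 12017 to 17746 at 3 days and 2660 to 4106 at 7 days, so that the range at 7 days stood clear of both others. Those that fell included receptors such as Csf1r for colony stimulating factor 1, the mannose receptor Mrc1, the integrin chain Itgam (CD11b) and the monocyte chemokine receptor Ccr2.

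Lyz2, which encodes lysozyme, gave signals of 2566, 1989 and 2301 at 3 days, 153, 413 and 208 at 7 days and 79.5, 92.1 and 37.2 in controls. The 7 day arrays lay below every 3 day array and above every control, and the change was -3.19 ± 0.37 (adjusted p = 0.000111). Cd53, a leukocyte tetraspanin, went from 444, 218 and 233 to 10.1, 37.7 and 19, with 1.90, 3.20 and 2.70 in controls, a change of -3.15 ± 0.50 (adjusted p = 0.00105). For both genes the highest 7 day array was 439 and the lowest 425. Other myeloid genes among the largest falls were Adam8, a leukocyte membrane protease, at -3.42 ± 0.41, Lilr4b, an inhibitory leukocyte receptor, at -3.37 ± 0.56, Sirpa, the receptor that reads CD47 on other cells, at -2.83 ± 0.40, and Lst1, a leukocyte transcript, at -2.83 ± 0.40. At 7 days Adam8 overlapped the control range, with 411, 129.7 and 197 at 3 days, 4.90, 15 and 7.80 at 7 days and 9.20, 14.4 and 11.4 in controls. Cx3cr1, the fractalkine receptor, was the one marker with a higher mean at 7 days and was not called (0.43 ± 0.29, adjusted p = 0.435).

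**Figure D2:**
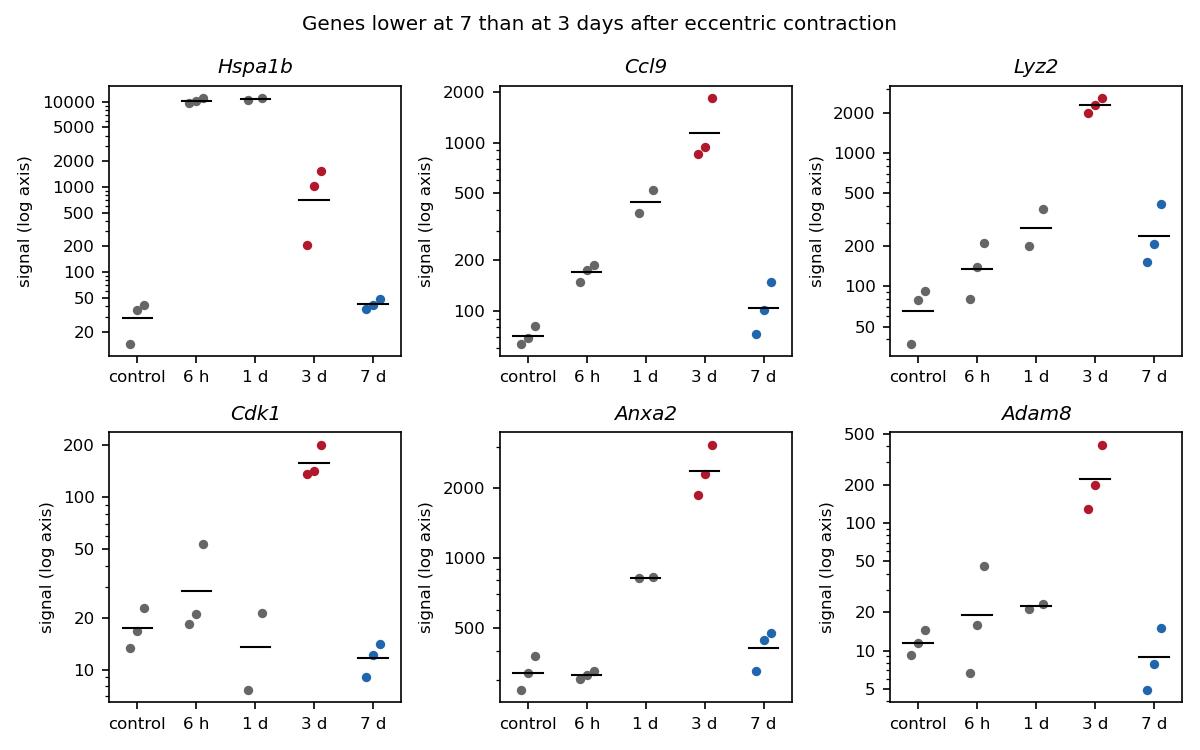
Signals (y axis, arbitrary units, log scale) of 6 genes that fell between 3 and 7 days, by contraction group and control (x axis); points are arrays and black bars are means taken on the log2(signal + 13) scale. In each panel all 3 arrays at 7 days lie below all 3 at 3 days. Hspa1b is highest at 6 hours and 1 day. Points within a group are drawn in order of signal.

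Not every macrophage gene had reached the control level at 7 days. Of the 29 markers, 7 were still called above control, among 1.52% of all genes. Lgals3, which encodes galectin 3, gave 1350.5, 1540.2 and 1779.6 at 3 days and 573, 659 and 529.7 at 7 days against 27.4, 23.3 and 4.70 in controls. It fell by 1.38 ± 0.30 between the times, yet every 7 day array remained above every control, by 4.34 ± 0.30 (adjusted p = 8.00e-07). Cd68, a lysosomal membrane protein of macrophages, stood at 165, 189.6 and 133 against 71.5, 35.2 and 73.3 in controls, a difference of 1.30 ± 0.25 (adjusted p = 0.0124). In contrast Csf1r gave 90.5, 184 and 109 at 7 days against 111, 77.1 and 76.9 in controls, overlapping ranges, after 1036, 529.7 and 589.7 at 3 days. Adgre1, Lgals3, Cd68 and Csf1r were singled out after their values had been seen. The calls of Lyz2 and Cd68 above control were lost without array 439, and that of Lyz2 also without array 453, control 1 or control 3.

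Lysosomal genes fell together with the macrophage markers, and Ctss belongs to both lists. Of 30 cathepsins, hydrolases and proton pump subunits, 19 fell and none rose (median -0.90). Ctss, the cathepsin S that trims antigens, gave 3782, 2240.4 and 2475 at 3 days, 191, 718 and 449.8 at 7 days and 81.9, 78.5 and 56.2 in controls. It fell by 2.76 ± 0.36 (adjusted p = 0.000239) and was still above control by 2.28 ± 0.36 (adjusted p = 0.00325), with no overlap among the groups. Lgmn, the asparaginyl protease legumain, gave 1623, 1209.9 and 733, 221, 347 and 224 and 82.5, 106 and 81.5, again in 3 separate ranges, with a change of -2.07 ± 0.25 (adjusted p = 0.000135). Tpp1, a lysosomal peptidase, was not called (0.08 ± 0.22, adjusted p = 0.893). The count of lysosomal genes that fell was 9 without array 435, 11 without array 425 and 0 with all 25 arrays.

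Among 13 complement genes 7 fell and none rose (median -0.71), led by the C1q chains that tag debris. C1qb gave 1398, 628 and 851 at 3 days, 98.5, 360.2 and 140.1 at 7 days and 34.7, 55.9 and 39.8 in controls, a change of -2.31 ± 0.40 (adjusted p = 0.00184). C1qa fell by 1.86 ± 0.31 and, like C1qb, was called above control at 7 days, by 1.37 ± 0.31 (adjusted p = 0.033), calls that were lost without array 439, array 453 or any 1 control. A second probe set of C1qb was not called and had the opposite sign (0.99). The number of complement genes that fell was 3 without array 435, 3 without array 425, 4 without array 453 and 0 with all 25 arrays.

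Among 10 MHC class II genes, which present antigen, H2-DMa, which loads peptide, fell alone (-1.76 ± 0.32, adjusted p = 0.00256), on 1 of its 2 probe sets, where 6.72% of all genes were called lower. The count was 2 without array 439. H2-Aa, a class II chain, gave 833, 554 and 626 at 3 days and 244, 618 and 343 at 7 days, ranges that overlapped, against 79, 220.3 and 48.6 in controls. Its difference between the times was -0.80 ± 0.40 (adjusted p = 0.249), and at 7 days it was above control by 1.82 ± 0.40 (adjusted p = 0.0299), a call lost without array 439, array 453, control 1 or control 3.

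Of 27 chemokines and cytokines 6 fell (Ccl9, Ccl2, Ccl8, Ccl7, Ccl6 and Cxcl14) and none rose, with a median of -0.36. Ccl2, which draws monocytes, gave 129, 619 and 184 at 6 hours, 441, 208 and 229 at 3 days and 8.10, 25 and 21.7 at 7 days, against 4.60, 13 and 5.50 in controls. Its change was -3.25 ± 0.44 (adjusted p = 0.000281), and the 7 day range overlapped that of controls. Ccl9, a chemokine for myeloid cells, gave 1833, 849.7 and 940.4 at 3 days, 73.2, 149 and 101 at 7 days and 81.5, 63.9 and 69.5 in controls, a change of -3.30 ± 0.28 (adjusted p = 1.09e-05). With all 25 arrays 2 members of this list fell.

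Interferon response genes had a median of -0.88, and 9 of 28 fell while none rose. Ifi30, a lysosomal thiol reductase induced by interferon that is not in this list, fell from 242, 183 and 197 to 9.70, 31.9 and 13.5, which overlapped the controls at 12.9, 25.7 and 8.10, a change of -2.87 ± 0.36 (adjusted p = 0.00016). Slfn2, a Schlafen family member, gave 476, 104 and 259 at 3 days and 29.9, 124 and 18.6 at 7 days, and these ranges overlapped at array 439. Its change of -2.13 ± 0.57 (adjusted p = 0.026) was not called without array 435, 467, 425 or 453. The list's count was 1 without array 435, 5 without array 467, 5 without array 425, 4 without array 453 and 0 with all 25 arrays.

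Among 21 matrix proteases and inhibitors 6 fell, Adam8, Mmp12, Plaur, Timp1, Mmp3 and Adam10, and none rose (median -0.40). Mmp12, the macrophage elastase, gave 1341, 512 and 823 at 3 days, 37.1, 365 and 117 at 7 days and 28.3, 17.5 and 7.50 in controls. Its change of -2.64 ± 0.55 (adjusted p = 0.00655) left all 7 day arrays above all controls, a difference of 2.19 ± 0.55 that was not called (adjusted p = 0.0626). The list's count was 2 without array 435, 3 without array 453 and 0 with all 25 arrays.

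Proliferation genes fell back as well. Of 55 genes of DNA replication and mitosis 25 fell and none rose, against 6.72% of all genes called lower. The median was -0.98. In 43 of the 55 all 7 day arrays lay below all 3 day arrays, as in 17.0% of all genes. Those that fell included the kinase Cdk1, its partners Ccna2, Ccnb2 and Cks2, the helicase subunits Mcm3, Mcm4 and Mcm5, the topoisomerase Top2a and the sliding clamp Pcna. The median against control was 1.13 at 3 days and 0.15 at 7 days. The count was 10 without array 435, 13 without array 425 and 1 with all 25 arrays, and 32 with 24 arrays.

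Cdk1, the kinase that drives entry into mitosis, gave 202, 137 and 142 at 3 days, 9, 12.2 and 14 at 7 days and 22.8, 16.7 and 13.4 in controls. The 7 day arrays overlapped the controls and lay below every 3 day array, a change of -2.79 ± 0.32 (adjusted p = 0.000103). At 6 hours it was 53.5, 21.1 and 18.3 and at 1 day 21.3 and 7.60, so the 3 day arrays stood alone. Stmn1, a microtubule regulator of dividing cells, gave 565, 290.5 and 311, 38, 132 and 75.5 and 37.6, 32.9 and 17.7 in the same order of groups, a change of -2.15 ± 0.35 (adjusted p = 0.00114). Cdc45, a replication helicase factor, had the opposite sign and was not called (1.21 ± 0.39, adjusted p = 0.061), and Pola2, a subunit of DNA polymerase alpha that is not in the list, rose by 1.98 ± 0.39 (adjusted p = 0.00433) on 1 of its 2 probe sets.

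The 250 bases before the start of Cdk1 are printed because they hold TTTGAA, known as the CHR element of cell cycle promoters, shown in capitals (RefSeq, GRCm38.p6, chr10:69352913-69353162, minus strand).
Cdk1: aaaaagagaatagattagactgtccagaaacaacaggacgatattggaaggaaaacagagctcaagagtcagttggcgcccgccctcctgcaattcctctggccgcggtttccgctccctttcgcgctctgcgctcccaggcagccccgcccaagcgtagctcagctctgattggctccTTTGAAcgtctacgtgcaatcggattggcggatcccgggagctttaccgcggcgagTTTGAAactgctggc
The element lies 71 to 66 and 15 to 10 bases before the start. On either strand it was present in 8 of 19 cell cycle genes that fell and have a promoter window (42.1%), in 7 of 27 that were not called lower (25.9%) and in 16.0% of 32851 mouse windows of this length. A gene was counted if any of its windows matched, whereas the 16.0% is per window, so these shares are not like measures. A match is a description of the letters.

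Heat shock genes fell back between 3 and 7 days. Of 29 genes for heat shock proteins and chaperones 15 had been above control at 3 days, and 13 fell between the times, none rose and the median was -0.67. With all 25 arrays 7 still fell. Hspa1b, an inducible Hsp70, gave 10291, 9623 and 10953 at 6 hours, 10516 and 10940.3 at 1 day, 207, 1037 and 1552 at 3 days, 48.2, 36.5 and 41.2 at 7 days and 36.4, 41.1 and 14.5 in controls. Array 435 held the lowest 3 day value, still above every 7 day array, and the change was -3.70 ± 0.48 (adjusted p = 0.000207). Hspa1a, its near-identical copy, gave 683, 1763 and 3453 at 3 days and 156, 120.1 and 97.3 at 7 days against 112, 45.2 and 80.2 in controls, a change of -3.58 ± 0.42 (adjusted p = 0.000111). Probes for these copies may bind both transcripts, so they are not 2 independent results. Hsp90aa1, the inducible Hsp90, and Cryab, the small heat shock protein of the Z-disc, also fell, as did the endoplasmic reticulum chaperones Hspa5, Hsp90b1, Pdia3 and Pdia4.

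The windows before both Hsp70 genes are shown because these copies also share most of their start regions, with the heat-shock pair GAANNTTC in capitals (RefSeq, GRCm38.p6, minus strand; Hspa1b at chr17:34959239-34959488 and Hspa1a at chr17:34972157-34972406).
Hspa1b: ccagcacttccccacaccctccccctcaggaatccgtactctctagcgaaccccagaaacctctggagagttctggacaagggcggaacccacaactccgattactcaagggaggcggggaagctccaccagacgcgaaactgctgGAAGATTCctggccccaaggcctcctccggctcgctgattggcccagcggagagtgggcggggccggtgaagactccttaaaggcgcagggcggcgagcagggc
Hspa1a: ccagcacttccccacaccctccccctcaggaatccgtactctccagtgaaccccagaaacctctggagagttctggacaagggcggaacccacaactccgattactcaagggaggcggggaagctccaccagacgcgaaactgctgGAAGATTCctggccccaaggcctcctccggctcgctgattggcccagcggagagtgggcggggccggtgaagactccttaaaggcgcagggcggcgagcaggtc
The windows are identical at 247 of 250 positions (98.8%), and the capitals lie 104 to 97 bases before either start. GAANNTTC or TTCNNGAA was present in 4 of 10 heat shock genes that fell and have a window (40%), in 4 of 13 of the others (30.8%) and in 12.8% of all windows. Hspa1a and Hspa1b are both among those 10. Here too a gene was counted if any of its windows matched, whereas the 12.8% is per window.

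Immediate early genes, which respond to stimuli within minutes, fell in 7 of 31 cases (Fos, Fosl1, Atf3, Junb, Myc, Klf6 and Zfp36), with none rising and a median of -0.47. Fos gave 6395, 4159 and 6066 at 6 hours, 264, 385 and 416 at 3 days, 138, 43.8 and 49 at 7 days and 44.5, 23 and 49.6 in controls. All 3 day arrays lay above all 7 day arrays, and the change was -2.16 ± 0.32 (adjusted p = 0.000615), on 1 of 2 probe sets. The list's count was 4 without array 435, 4 without array 453 and 2 with all 25 arrays. Nr4a1, an orphan nuclear receptor, had the highest difference of the list and was not called (0.79 ± 0.34, adjusted p = 0.167).

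Genes of sarcomere strain and membrane repair moved in both directions. Of 26 tested, 12 fell and 2 rose (median -0.33), and 3 fell with all 25 arrays. Ankrd1, a strain sensor of the titin complex, gave 6731, 6982 and 7658 at 6 hours, 4167, 2540.5 and 5304 at 3 days, 790.2, 767 and 754 at 7 days and 92.5, 170.2 and 109 in controls. It fell by 2.29 ± 0.24 (adjusted p = 4.95e-05), and the 7 day arrays, close to each other, were all above the controls by 2.56 ± 0.24 (adjusted p = 1.34e-05). Anxa2, which patches torn membranes, gave 3063, 1872 and 2288, 328, 443 and 476 and 319, 379 and 270.3 at 3 days, 7 days and in controls. It fell by 2.49 ± 0.20 (adjusted p = 1.02e-05) to a range that overlapped the controls. Rrad, a small GTPase that blocks calcium channels, also fell (-2.10 ± 0.25) and remained above control (2.70 ± 0.25, adjusted p = 1.34e-05). The 2 that rose were Myoz1, a Z-disc binder of calcineurin (1.49 ± 0.22, adjusted p = 0.000609), and Capn3, the muscle calpain (1.00 ± 0.21, adjusted p = 0.00653). Capn3 was called on 1 of its 3 probe sets.

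In the list of 15 annexins and S100 proteins 6 fell and none rose (median -0.39), namely Anxa1 to Anxa5 and S100a10. Anxa1, an annexin that limits inflammation, fell from 1135, 791 and 653 to 159, 259 and 159.5, with 112, 124 and 145 in controls, a change of -2.08 ± 0.24 (adjusted p = 0.000105). Of 30 metallothionein and antioxidant genes 6 fell and 3 rose (median -0.25). Mt1, a metal-binding metallothionein, gave 1650.0, 940.3 and 1168 at 3 days and 274, 338 and 258 at 7 days against 119, 110.2 and 84.1 in controls, a change of -2.03 ± 0.33 (adjusted p = 0.00113) that left all 7 day arrays above all controls, a difference called against control (1.37 ± 0.33, adjusted p = 0.0481) but not without any 1 array of either group. Srxn1, the sulfiredoxin, fell by 1.62 ± 0.30 (adjusted p = 0.00289) on 1 of 2 probe sets, and the mitochondrial dismutase Sod2 rose by 1.19 ± 0.22 (adjusted p = 0.00333). With all 25 arrays 2 metallothionein and antioxidant genes and no annexin fell. The 3 rises in the metallothionein and antioxidant list became 1 without array 435, 425 or 439 or with only the 6 arrays compared.

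Many genes that rose belonged to energy metabolism and fast fibres and had been below control at 3 days. Of 41 genes for fatty acid oxidation or the TCA cycle 23 rose and 1 fell (median 0.76), of 43 respiratory chain and ATP synthase genes 19 rose and 1 fell (median 0.73), and of 27 glycolysis and glycogen genes 12 rose and 2 fell (median 0.79), against 4.67% of all genes called higher. All 7 day arrays lay above all 3 day arrays in 30, 30 and 16 genes of these lists, as in 14.1% of all genes. Their medians against control were -0.93, -0.72 and -1.16 at 3 days and -0.20, -0.02 and -0.18 at 7 days. These counts moved against the summed macrophage markers given above, and the part of the changing cell mixture was not tested.

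These counts were sensitive to single arrays. TCA and fatty acid genes that rose numbered 11 without array 435, 13 without array 467, 14 without array 425 and 11 without array 453. Respiratory genes numbered 9 without array 435 and 11 without array 453, and glycolysis genes 6 and 5. With only the 6 arrays compared 15 TCA and fatty acid genes and 7 glycolysis genes rose. With all 25 arrays the 3 counts were 0, 0 and 1, and with 24 arrays they were 28, 25 and 16.

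Gpd1, the cytosolic glycerol-3-phosphate dehydrogenase, gave 154, 213 and 258 at 3 days, 1329.9, 1352 and 1352 at 7 days and 1197, 1481 and 2477 in controls. The 7 day arrays nearly coincided and lay far above the 3 day arrays, within the control range, a rise of 2.64 ± 0.24 (adjusted p = 1.76e-05), on 1 of 2 probe sets. Slc37a4, which carries glucose 6-phosphate into the endoplasmic reticulum, rose from 108, 216 and 182 to 770.5, 549.5 and 818, with 648, 758 and 824 in controls, by 2.03 ± 0.23 (adjusted p = 0.000103). Ucp3, a mitochondrial carrier of muscle, gave 137, 250.3 and 177 at 3 days, 463, 485 and 571 at 7 days and 381, 468 and 465 in controls, a rise of 1.40 ± 0.20 (adjusted p = 0.000465). Its 7 day range overlapped that of controls.

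Ndufs3, a core subunit of complex I, gave 1325, 1805 and 1659.9, 3800.5, 3872 and 4375 and 3517, 3138 and 2962, a rise of 1.33 ± 0.17 (adjusted p = 0.00016). Its 7 day arrays were all above both other groups. The members that fell were forms found outside muscle fibres as well: Cpt1a, the liver form of the carnitine transferase (-1.86 ± 0.45, adjusted p = 0.0162), Cox6a1, the widely expressed form of a cytochrome oxidase subunit (-0.79 ± 0.23, adjusted p = 0.0423), Slc2a1, the basal glucose transporter (-1.49 ± 0.43, adjusted p = 0.0374), and Pgam1, the non-muscle phosphoglycerate mutase (-1.19 ± 0.28, adjusted p = 0.0147). These 4 calls were lost without array 435 and, for some, without others of the 6 arrays, and all 4 signals had been above control at 3 days. Pgam2, the muscle form of the mutase, was among the genes that rose.

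Of 23 fast fibre genes 10 rose and none fell (median 0.76). They included the calcium release channel Ryr1, its voltage sensor Cacna1s, the calcium store protein Casq1, creatine kinase Ckm and the light chain Mylpf. Kcna7, a potassium channel, gave 41.5, 144 and 79.7 at 3 days, 305, 228 and 285 at 7 days and 292, 348 and 544 in controls, a rise of 1.62 ± 0.32 (adjusted p = 0.00441). Myh4, the fastest myosin heavy chain, gave 7556, 8671 and 13014 and 12561, 21670.4 and 17488, ranges that overlapped, and was not called (0.83 ± 0.32, adjusted p = 0.13). Of the 8 defining muscle markers 3 rose (Pvalb, Ckm and Mylpf), with a median of 0.51, but 0 rose without array 435, 467, 439 or 453 and 1 without array 425 or with only the 6 arrays compared. The number of fast fibre genes that rose was 4 without array 435, 5 without array 467, 6 without array 425, 6 without array 439, 4 without array 453, 6 with only the 6 arrays compared, 6 after quantile normalization and 0 with all 25. The call of Pvalb was lost without array 435, 449, 467, 439 or 453.

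Other genes with large rises had a range of roles. Itm2a, a membrane protein of differentiating cells, gave 168, 435 and 238 at 3 days, 1308, 1343 and 1416 at 7 days and 793, 758 and 596 in controls. All 7 day arrays exceeded all controls, the rise from 3 days was 2.33 ± 0.24 (adjusted p = 4.95e-05), and the difference from control was not called (0.92 ± 0.24, adjusted p = 0.078). Agt, the angiotensin precursor, rose by 2.37 ± 0.38, Nrep, a neuronal regeneration related protein, by 1.74 ± 0.18, Reep1, which shapes the endoplasmic reticulum, by 1.66 ± 0.17, and Thrsp, a regulator of lipid synthesis, by 1.69 ± 0.22. Reep1 gave 449.5, 431 and 482 at 3 days and 1405, 1550.5 and 1443 at 7 days, with 851, 859 and 1302 in controls. Mlf1 (1.72 ± 0.42), whose call was lost without array 435, 467 or 425, and the semaphorin Sema6c (1.64 ± 0.45), whose call was lost without array 435, 425 or 453, rested on fewer arrays.

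**Figure D3:**
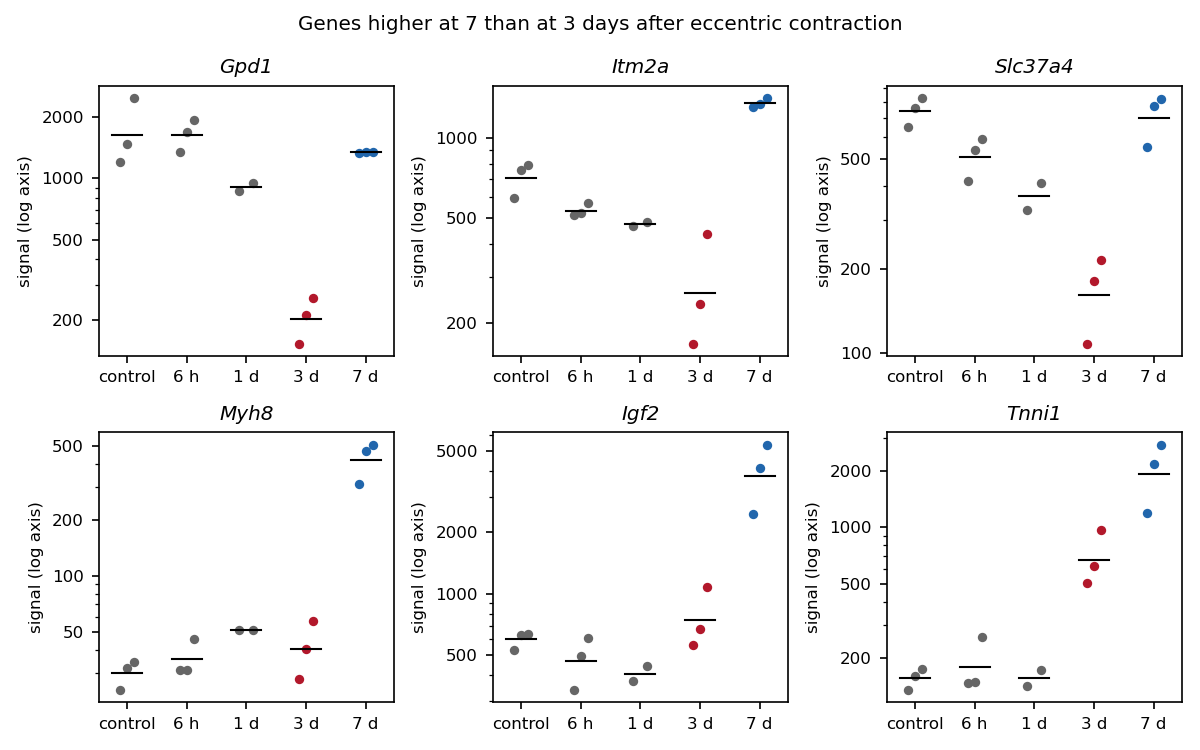
Signals (y axis, arbitrary units, log scale) of 6 genes that rose between 3 and 7 days, by contraction group and control (x axis); points are arrays and black bars are means taken on the log2(signal + 13) scale. Gpd1 and Slc37a4 come back to ranges that overlap controls, whereas Itm2a, Myh8, Igf2 and Tnni1 lie above all controls in all 3 arrays at 7 days. Tnni1 lies above all controls at 3 days as well.

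Most developmental sarcomere genes and some slow ones rose, and several ended above control. Of 10 embryonic and developmental sarcomere genes 6 rose between 3 and 7 days (Myh8, Myl4, Actc1, Myh3, Tnnt2 and Myl6b) and 1 fell (Csrp3), with a median of 0.89. The median against control was 1.35 at 3 days and 1.58 at 7 days, when 7 of the 10 were called above control. The count of rises was 3 without array 467, 3 without array 439, 3 without array 453 and 3 with all 25 arrays.

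Myh8, the perinatal myosin heavy chain, gave 56.9, 40.1 and 27.8 at 3 days, 310.1, 507 and 467 at 7 days and 34.5, 24.2 and 32 in controls. It was at control level at 3 days and far above both groups at 7 days, a rise of 3.02 ± 0.26 (adjusted p = 1.09e-05). Myl4, the embryonic and atrial light chain, gave 381, 190.5 and 241, 1206, 3419 and 1716 and 74.2, 106 and 68.7, a rise of 2.82 ± 0.32 (adjusted p = 0.000103) that added to the one already present at 3 days (1.53 ± 0.32, adjusted p = 0.00335). Its second probe set was not called (0.48). Myh3, the embryonic heavy chain, gave 106, 86.5 and 60 at 3 days, 130.3, 384 and 307 at 7 days and 4.60, 1.10 and 19.7 in controls, a rise of 1.46 ± 0.38 (adjusted p = 0.0223). The call of Myh3 between the times was lost without array 467, 439 or 453. For Myh8, Myl4 and Myh3 array 439 was the highest 7 day array and array 425 the lowest.

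Actc1, the cardiac actin that developing muscle also uses, followed another course. It gave 1759, 2376 and 2161 at 3 days, 5049, 7930.2 and 6605 at 7 days and 6028, 4669 and 4948 in controls, a fall below control at 3 days (-1.31 ± 0.22, adjusted p = 0.00073) and a rise of 1.62 ± 0.22 (adjusted p = 0.000309) to a range that overlapped the controls. Mybph, a myosin binding protein, was above control at 3 and at 7 days, the latter call lost without any 1 array of either group, and did not pass the test between the times (-0.21 ± 0.28, adjusted p = 0.722).

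Of 12 slow fibre genes 3 rose and none fell (median 0.24). Tnni1, slow troponin I, gave 962, 619 and 501 at 3 days, 1187, 2748 and 2169 at 7 days and 175, 162 and 135 in controls, a rise of 1.50 ± 0.30 (adjusted p = 0.00463). Tnnt1, slow troponin T, rose by 1.93 ± 0.35 (adjusted p = 0.00281) on 1 of 2 probe sets, to 1265, 2699 and 2576 against 191, 119 and 169 in controls. For both genes the groups did not overlap, and both were above control by over 3 log2 units (3.51 and 3.61). Mb, myoglobin, rose by 0.96 ± 0.25 (adjusted p = 0.0207) from below control at 3 days, a call lost without array 435, 467 or 453. Actc1, Myh3 and Mb were singled out after their values had been seen.

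Igf2, a fetal growth factor of muscle, rose with them. It gave 1077, 676 and 564 at 3 days, 2475, 5377 and 4118 at 7 days and 631, 535 and 636 in controls, a rise of 2.33 ± 0.28 (adjusted p = 0.000132). All 7 day arrays were above both other groups, by 2.64 ± 0.28 over control (adjusted p = 4.91e-05). Of 14 imprinted growth genes 2 rose (Igf2 and Slc38a4; 1 without array 435, 425, 439 or 453) and none fell, with a median of 0.56 between the times and 0.62 against control at 7 days, and Meg3, a long noncoding RNA of this list, had a difference of 1.79 ± 0.72 that was not called (adjusted p = 0.14). Maged2, a MAGE family gene, rose from 73.3, 98.7 and 99.9 to 252, 551 and 688, with 99.6, 81.1 and 28.7 in controls, by 2.20 ± 0.40 (adjusted p = 0.00256). Of 37 IGF, TGF-beta and growth factor genes 3 rose (Igf2, Mstn and Ltbp3) and 1 fell (Sfrp2), with a median of 0.09. The rises numbered 1 without array 435 or 425, and the falls 0 without array 435, 449, 467, 425 or 453 and 2 without array 439.

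Of 27 genes of satellite cells and myogenic control 3 fell (Myog, Sdc4 and Itga7) and none rose (median -0.29). At an unadjusted p under 0.05 by limma 9 were lower and 1 was higher. Over all genes 6.72% were called lower. Above control were 12 of the 27 at 3 days and 1 at 7 days, against 11.7% and 1.52% of all genes. Myog, which switches on differentiation, gave 1382, 528 and 1616 at 3 days, 205, 436 and 391 at 7 days and 135, 119 and 144 in controls. It fell by 1.65 ± 0.33 (adjusted p = 0.00538), and the 7 day arrays, all above the controls, were not called against them (1.23 ± 0.33, adjusted p = 0.0863). Myod1, the determination factor, gave 980.5, 558 and 1291, 339, 738 and 441 and 334, 221 and 266, and its difference between the times was not called (-0.88 ± 0.31, adjusted p = 0.0936). Cdkn1c, the cell cycle inhibitor p57 of differentiating myoblasts, gave 334, 372 and 253 and 504, 641 and 472 against 111, 154 and 111 in controls, and the difference of 0.74 ± 0.23 between the times just missed the threshold (adjusted p = 0.0505). Myod1 was singled out after its values had been seen. The count of this list that fell was 2 without array 435, 425 or 453, 7 without array 449 and 6 without array 439. It was 6 with 24 arrays and 1 with all 25.

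A further 49 genes were at least 2-fold away from control at 7 days, with every 7 day array beyond every control, and were not called between the times. Of these 40 were above control and 9 below. Over all genes every 7 day array was above every control in 9.0% and below in 9.39%. A missed threshold between 3 and 7 days does not show that these genes stayed level.

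Chrna1, the alpha chain of the muscle acetylcholine receptor, had the largest difference from control among them. It gave 803, 329 and 1516 at 3 days, 276, 851 and 681 at 7 days and 42.4, 45.5 and 64.2 in controls, or 3.15 ± 0.44 above control at 7 days (adjusted p = 0.00113) and -0.43 ± 0.44 between the times (adjusted p = 0.63). The 3 and 7 day ranges overlapped, and the spread within each was wide. Of 15 acetylcholine receptor and synapse genes 1 fell (Runx1, whose call was lost without array 435, 467, 425 or 453; 3 fell without array 449) and none rose (median -0.19), with Chrna1 and Chrnb1 above control at 7 days.

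Tmsb10, an actin-binding thymosin, gave 3562, 2081 and 2923 at 3 days, 1656, 3208 and 2617 at 7 days and 249.8, 327 and 218 in controls, 3.14 ± 0.25 above control at 7 days (adjusted p = 1.86e-06). S100a4, a calcium-binding protein of motile cells, gave 992, 615 and 760.3, 559, 635 and 568 and 52.7, 73.9 and 53.7, 3.05 ± 0.21 above control (adjusted p = 8.00e-07). Neither gene showed a 3 to 7 day difference past the threshold (-0.21 ± 0.25 and -0.39 ± 0.21). Lgals1, galectin 1, gave 7654, 4591 and 7589, 6227, 8655 and 7294 and 1868, 2026 and 1209, 2.13 ± 0.24 above control (adjusted p = 7.44e-05). Its 7 day arrays all stood far above the highest control.

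Postn, the matrix protein periostin, gave 427, 458 and 330.3 at 3 days, 193, 624 and 408 at 7 days and 69.1, 93.4 and 65.7 in controls, 2.11 ± 0.36 above control at 7 days (adjusted p = 0.00472). Atp2a2, the slow form of the sarcoplasmic calcium pump, was above control by 2.29 ± 0.28 (adjusted p = 0.00022) and Tnnc1, slow troponin C, by 1.88 ± 0.37 (adjusted p = 0.0164). Myl3, the slow and ventricular myosin light chain, was the leading gene below control, with 212, 634 and 240.0 at 3 days, 286, 199.6 and 184 at 7 days and 1044, 1475 and 548 in controls, a difference of -2.05 ± 0.38 (adjusted p = 0.0107). Aqp1, a water channel of capillaries, was also below control at 7 days (-1.40 ± 0.22, adjusted p = 0.00266), at 530.3, 399.5 and 502 against 1424, 1216 and 1196, after 293, 478 and 531 at 3 days, and its difference between the times was 0.17 ± 0.22 (adjusted p = 0.716). The calls of Myl3 and Tnnc1 against control were lost without array 439, array 453, control 1 or control 2, and those of Postn and Tmsb10 with all 25 arrays. Those of Chrna1, S100a4, Lgals1, Atp2a2 and Aqp1 were kept in each alternative.

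**Figure D4:**
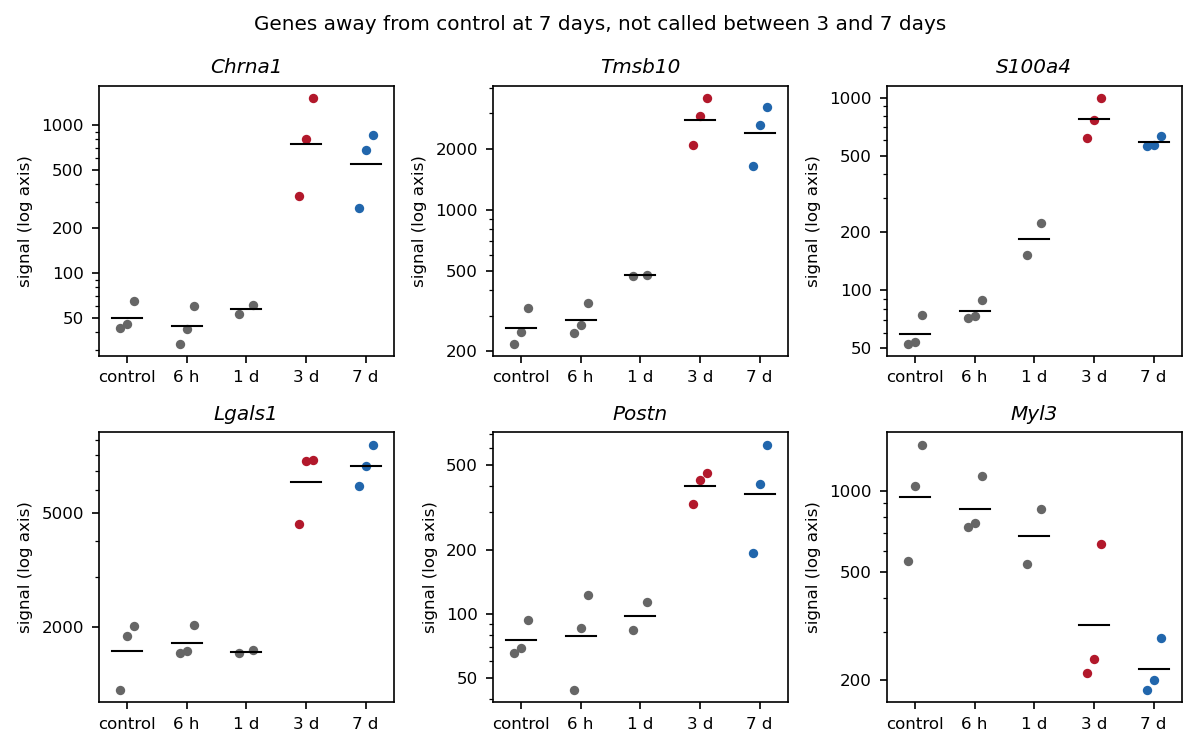
Signals (y axis, arbitrary units, log scale) of 6 genes away from control at 7 days and not called between 3 and 7 days, by contraction group and control (x axis); points are arrays and black bars are means taken on the log2(signal + 13) scale. For the 5 genes above control all 7 day arrays lie above all controls, and for Myl3 all lie below.

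Matrix genes were called lower at shares near that of all genes (6.72%). Of 21 fibrillar collagens and collagen processing genes 2 fell (Serpinh1 and Lox) and none rose (median -0.37), and 9 had been above control at 3 days. At 7 days the median against control was 0.10. The count that fell was 1 without array 435 or 425, where the call of Lox was lost, 7 without array 439 and 0 with all 25 arrays. Lox was called on 1 of its 2 probe sets, and the other had the opposite sign (0.19). Serpinh1, the collagen chaperone, fell from 676, 572 and 584 to 213, 291 and 265, with 216, 320.1 and 192 in controls, a change of -1.22 ± 0.26 (adjusted p = 0.00715). Col3a1, the chain of type III collagen, gave 993, 1127 and 995 and 372, 826 and 522 against 375, 397 and 144, a difference of -0.91 ± 0.32 that was not called (adjusted p = 0.0934). It was singled out after its values had been seen.

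In 18 matricellular genes Tgfbi, a TGF-beta induced adhesion protein, fell alone (-1.93 ± 0.28, adjusted p = 0.000568; median -0.34). Among 15 basement membrane genes the fibulin Fbln2 fell alone (-0.95 ± 0.23, adjusted p = 0.0173; median -0.14), a call lost without array 435 or 453. Of 22 proteoglycan and fibroblast genes the endocytic receptor Lrp1 fell (-1.08 ± 0.18, adjusted p = 0.00141; median -0.25). None of these 3 lists had a member that rose. The matricellular count was 2 without array 467 or 439, and the proteoglycan count 2 without array 467, 425 or 439.

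Where the genes that moved ended was examined for those changed at least 2-fold between the times. Of 309 genes that fell this far, the 7 day range overlapped the control range in 225, lay above it in 66 (21.4%) and below it in 18 (5.83%). Over all genes the shares were 9.0% above and 9.39% below. Their median against control was 1.67 at 3 days and 0.18 at 7 days, and 273 (88.3%) lay within 1 log2 unit of control at 7 days, as did 97.4% of all genes. At 7 days 26 were still called above control, among them Lgals3, Apoe, Rrad, Mt2, Ankrd1, Ctss, Tyrobp, C1qa, C1qb, Lyz2, Cd52, Lgmn, Cd68 and Ctsz. Of these, C1qa, C1qb, Lyz2, Lgmn and Cd68 lost the call without array 439. Those genes, Lgals3 and Ctss also lost it with all 25 arrays in the fit. The calls of Apoe, Mt2, Tyrobp, Cd52 and Ctsz against control were not recomputed without single arrays. Only Slc3a2, the heavy chain of amino acid transporters, was called below control, at 185, 204 and 212 against 367, 338 and 319 in controls, after 600.2, 433 and 524 at 3 days, a call lost without any 1 array of either group.

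Of 111 genes that rose at least 2-fold, the 7 day range overlapped that of controls in 79, lay above it in 21 (18.9%) and below it in 11 (9.91%). The shares over all genes were again 9.0% above and 9.39% below. The median against control went from -1.20 at 3 days to 0.02 at 7 days. At 7 days 102 (91.9%) lay within 1 log2 unit of control, against 97.4% of all genes. Called above control were 11: Myl4, Myh3, Tnnt1, Tnni1, Myh8, Igf2, Maged2, Pcbd1, Map1lc3a, Thrsp and Cdh13. Map1lc3a and Thrsp lost the call without array 439 or 453, and Thrsp also without control 2 or 3. The calls of Pcbd1 and Cdh13 against control were not recomputed without single arrays. None was called below control by limma, and 5 were below it at an unadjusted p under 0.05. The 3 and 7 day values share arrays with the change between them, so these positions describe the genes and test nothing.

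**Figure D5:**
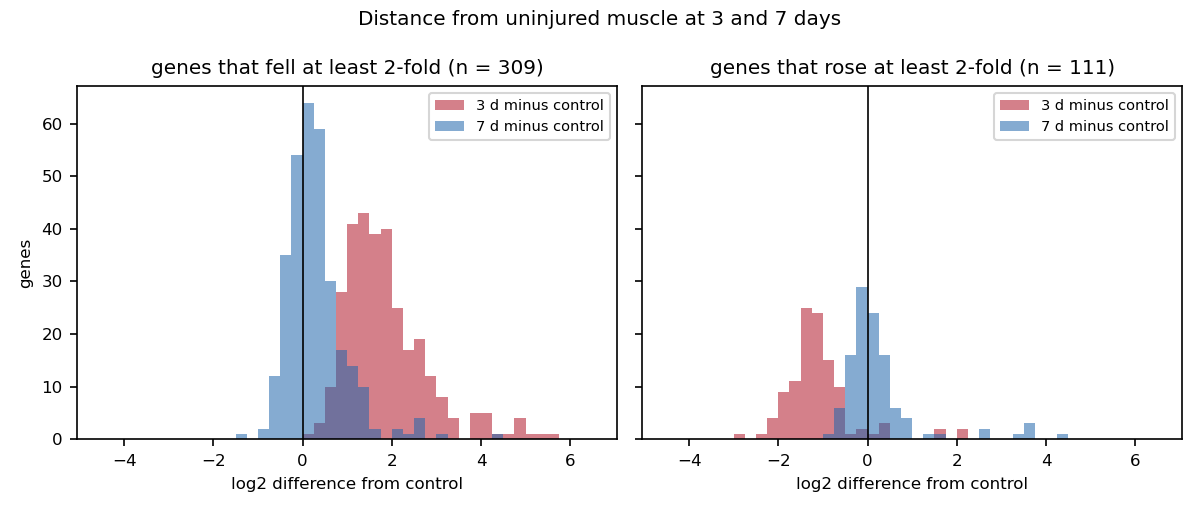
Histograms of the difference from control (x axis, log2(signal + 13) units) at 3 days (red) and 7 days (blue) of the genes (y axis, number of genes) that fell at least 2-fold (left panel) or rose at least 2-fold (right panel) between the times. At 7 days most lie near 0 (273 of 309 that fell and 102 of 111 that rose are within 1 log2 unit of control). Of all genes tested 97.4% are within that distance.

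Markers of other cell types are set against 6.72% of all genes called lower and 11.4% called in either direction. No neutrophil marker (0 of 11, median 0.04) and no lymphocyte marker (0 of 9, median -0.03) was called between the times by limma (0 and 1 at an unadjusted p under 0.05), and the summed neutrophil signal was 486 to 743 at 3 days, 510 to 783 at 7 days and 688 to 1035 in controls. Of 20 endothelial markers 2 fell (Thbd, whose call was lost without any 1 of the 6 arrays, and Eng, lost without array 435, 425 or 453) and none rose (median -0.11), with summed signals of 3121 to 3922 at 3 days, 2552 to 3474 at 7 days and 5082 to 5254 in controls. Thbd was called on 1 of its 2 probe sets. The lists for nerve sheath (10 Schwann cell and myelin genes, median 0.00), tendon (6, median -0.17) and skin (11, median 0.18) had no call, and each held 1 gene at an unadjusted p under 0.05. In the lists described above as having no member that rose or none that fell, at most 1 member (2 for the adipocyte and proteasome lists) had an unadjusted p under 0.05 in that direction.

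Adipocyte markers fell in 2 of 12 cases, Cebpa (-1.33 ± 0.22, adjusted p = 0.00134), a transcription factor also found in myeloid cells, and Plin2, a lipid droplet coat protein. Smooth muscle markers fell in 2 of 16 (Tpm4 and Tagln2) and rose in 1, Tpm2, a tropomyosin that skeletal fibres also express, whose call was lost without array 435, 467, 425 or 453, while 2 rose without array 449. Tpm2 was called on 1 of its 2 probe sets. Bpgm, an enzyme of red cells, rose alone among 6 red cell markers (1.20 ± 0.24, adjusted p = 0.00474), while the globins Hba-a1 (-0.69 ± 0.58, adjusted p = 0.537) and Hbb-b2 were not called. The signs of the lymphocyte, Schwann cell, smooth muscle, arginase and proteasome medians depended on the scaling of the arrays.

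Genes of protein synthesis and turnover are set against 6.72% of all genes called lower and 4.67% higher. Of 30 translation factor, nucleolar and tRNA synthetase genes 6 fell (median -0.23), led by Nhp2, a nucleolar protein (-1.42 ± 0.28, adjusted p = 0.0045); the count was 1 without array 435, 2 without array 467 and 1 without array 425. Of 24 ribosomal protein genes Rpl13a (-1.24 ± 0.20, adjusted p = 0.00111) and Rps19 fell, the latter not without array 449, 467, 425, 439 or 453, and of 32 proteasome genes Psmb7 alone rose (0.56 ± 0.17, adjusted p = 0.0466), a call lost without any 1 of the 5 arrays 435, 449, 425, 439 or 453. Among 13 atrophy genes Map1lc3a, an autophagosome protein, rose from 948, 851 and 1319.7 to 1804, 2989 and 3767, with 1082, 1269 and 996 in controls, by 1.41 ± 0.24 (adjusted p = 0.00153). Bnip3 and Mstn rose and Ctsl and Eif4ebp1 fell in that list, where the count of falls was 0 without array 435, 467, 425 or 453 and 1 without array 439.

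Of 9 arginase and polyamine genes 3 fell (Arg1, Sat1 and Odc1; 1 without array 435 or 425) and the antizyme Oaz2 rose (1.01 ± 0.20, adjusted p = 0.00508). Arg1, which macrophages use to break down arginine, gave 46.5, 44.2 and 19.5 at 3 days and 5.70, 4.90 and 5.80 at 7 days, a dim signal whose call was lost without array 435, 425 or 453. Among 16 transporters and ion channels of fibres Kcna7, Cacna2d1 and Cacna1s rose and Slc3a2 fell (median 0.33). The rises numbered 1 without array 435 or 453 and 6 without array 449, and the falls 2 without array 449. Of 13 clock genes Tef (1.05 ± 0.26, adjusted p = 0.0179) and Nr1d2 rose and none fell, both calls lost without array 435 or 453.

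Whether the 3 to 7 day change differed after freeze injury was tested by the interaction of injury and time in all 25 arrays. It called 11 genes (0.159%), and 47 without sample 436 (0.679%), the freeze array at 3 days known from earlier results to stand apart from its group. By probe set 13 were called, against 2 without array 454, 5 without array 425, 7 without array 467, 8 without array 440 or 453 and 55 without sample 436. Csrp3, a Z-disc protein of stressed fibres, differed most among the 5 genes with the smallest p. After contraction it gave 2441, 3880.4 and 2776 at 3 days and 1116, 1428 and 1193 at 7 days, and fell by 1.25 ± 0.25 (adjusted p = 0.00475). After freeze it gave 504, 522 and 412 at 3 days (436, 450 and 468) and 2425 and 3636 at 7 days (440 and 454), and the freeze change exceeded the contraction change by 3.86 ± 0.47 (adjusted p = 0.000419), or 3.90 ± 0.47 without sample 436.

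The other 4 showed little difference between the times after contraction and none was called there. Dlk1, an imprinted regulator of precursor cells, gave 89.8, 119.8 and 88.9 at 3 days and 119, 82 and 110.0 at 7 days after contraction, against 61.5, 102 and 98.3 and 621 and 715 after freeze, an interaction of 2.73 ± 0.42 (adjusted p = 0.00398). The matrix genes Dpt (2.19 ± 0.34, adjusted p = 0.00398) and Eln (1.78 ± 0.31, adjusted p = 0.0118), which encode dermatopontin and elastin, and Agtr2 (2.42 ± 0.42, adjusted p = 0.0118), an angiotensin receptor, had the same direction. Without sample 436 these 4 values were 2.53, 2.09, 1.63 and 2.33. The macrophage markers had a median change of -1.97 after contraction and, without sample 436, of -1.99 after freeze. They are 1 of 44 lists. Some others also kept the sign, such as lysosomal genes (-0.90 and -1.40). Others did not, such as genes of sarcomere strain (-0.33 and 0.78) and fibrillar collagens (-0.37 and 0.55). Of the 26 strain genes 7 were called in the interaction without sample 436, against 0.679% of all genes.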

How the data were processed

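RNA of mouse tibialis anterior had been hybridised to 25 MG-U74Av2 oligonucleotide arrays, 1 sample each. Per the submitters' processing notes the authors used MAS5 (version not given in the sources used here), and the deposited values are signal intensities on a linear scale, with a trimmed mean of 150.09 to 150.13 in each array. Intensities were taken as log2(signal + 13), where 20.1% of values were at or below 13. Of 12488 probe sets, 66 controls were left out, 10833 carried 1 gene symbol, 396 several and 1193 none, and 10817 of the single symbols were found in the RefSeq table of GRCm38.p6. Coordinates are those of that table, since no build is given for the probes.

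The 9506 probe sets that exceeded the 40th percentile in at least 2 of 25 arrays were tested. limma 3.58.1 in R 4.3.3 fitted 5 group means to 14 arrays (control and contraction), with a trend in the prior variance, 9 residual and 6.89 prior degrees of freedom. Tests were two-sided, with Benjamini-Hochberg adjustment over 9506 probe sets and calls at an adjusted p under 0.05. The interaction used all 25 arrays. A gene was represented by its single-symbol probe set with the highest mean. Tables were joined with pandas 2.3.3 in Python 3.11.15. The number of arrays limits the precision. On simulated data for the 7 against 3 day comparison, 93 of 100 probe sets changed by 2 log2 units and 46 of 100 changed by 1 were called, with 6 false calls. The noise there was independent for each probe set and array, and the rest of the 9506 probe sets had no change. In the real data more probe sets were called and the counts moved with single arrays, so these rates may not carry over.

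Genes named were, of called genes changed at least 2-fold with separate arrays, the 15 largest falls and 15 largest rises, the 10 largest differences from control at 7 days among genes not called between the times, the 2 largest falls and rises of each of 44 lists, and the 5 interaction genes with the smallest p. Others were named among the members of a count or are said to be singled out. The comparison and the lists were chosen with earlier results of these data known. Alternatives were other pseudocounts, filters, scalings, variance models, array weights, thresholds, sets of arrays in the fit and 1 probe set per gene, and leaving out each array. Treating neighbouring sample numbers as a random replicate block in the interaction was added after seeing the data.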

Additional observations from a re-analysis of the deposited data

Results flagged for a closer look

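The interaction between injury and time passed the test for 13 of 9506 probe sets. For these alone the change from 3 to 7 days was flagged as different after freeze and after contraction. At an unadjusted p under 0.05 by limma there were 537. By log2 difference of the changes, freeze less contraction, Csrp3 had 3.86, Dlk1 2.73, Agtr2 2.42, Dpt 2.19 and Eln 1.78. All 5 were positive, so the freeze change exceeded the contraction change, and the values without sample 436 were 3.90, 2.53, 2.33, 2.09 and 1.63. Only 2 freeze arrays were available at 7 days, and 1 of the 3 freeze arrays at 3 days was known from earlier results to stand apart from its group. The part of that array in the count was measured by leaving it out, which gave 55 probe sets.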

How the results depend on the processing

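No comparison of probe set counts changed direction. The 965 probe sets called between 7 and 3 days numbered 383 at an adjusted p under 0.01, 80 with all 25 arrays in the fit and 392 to 1010 when 1 array was left out. Those called between 3 days and control (1811) numbered 950, 784 and 1136 to 1755 under the same alternatives. Those called between 7 days and control (148) numbered 55, 51 and 63 to 138, with 288 in the 24 arrays without sample 436 and 61 with only the groups compared. The 13 interaction calls numbered 5 at an adjusted p under 0.01, 20 after quantile normalization, 8 after median centring, 8 with the stricter filter, 8 without a trend, 190 with array weights and 2 to 55 when 1 array was left out. The cause of these moves was not tested beyond the removal of arrays. The other alternatives kept each count within 1.5 times its value.

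No paired analysis was possible because the groups compared share no replicate number. In 10 cases a contraction sample and a freeze sample of 1 time carry neighbouring numbers, which the labels do not explain. The deviations of such neighbours from their group means correlated at -0.36 to 0.15, over 0.1 in 1 of the 10 pairs, so the numbers were not taken as pairs. With them as a random replicate block, an alternative chosen after seeing the data, the interaction called 9 probe sets. Dim probe sets limit what could be seen: 20.1% of values lay at or below 13, where log2(signal + 13) compresses differences.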
